A study of Mus musculus with 8 samples.

Results

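Mouse genes that entered the catalogues as full-length cDNA clones carry a name ending in Rik, and predicted gene models carry Gm and a number. Of 22558 gene symbols in the retina expression tables, 2816 were of these kinds, and 65 of them (57 Rik and 8 Gm) were enriched in the rod photoreceptor fraction. They were the genes with an FPKM of at least 5 in Cd73-positive cells (Cd73PC) at P8, a ratio of (FPKM + 1) in P8 Cd73PC over P8 Cd73-negative cells (Cd73NC) above 1.5, and a ratio in P2 Cd73PC over whole retina at E18 of at least 1.5. FPKM is a read number scaled to transcript length and to all mapped reads of the library. Of the Rik and Gm genes, 524 reached the FPKM, 101 of those passed the ratio at P8, and 36 of the 101 were then left out by the ratio to E18. The libraries of P8 Cd73PC, P8 Cd73NC, P2 Cd73PC, and E18 thus chose the members, and values of those contrasts are given as a description.

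RNA was sequenced from 8 samples of slc:ICR mouse retina: whole retina at E15 and E18, and sorted Cd73PC and Cd73NC of pups at P2, P5, and P8. Retinas were pooled before the sort (20 at P2, 12 at P5, and 20 at P8). By the labels, the mice were unmodified and received no agent. Each condition had 1 library, so no difference could be set against a replicate error and none was tested. Both fractions of an age came from the same retinas. Cd73NC is a mixture of all retinal cells not bound by the antibody, and the purity of the sort was limited, per the study's account.

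Rods are born over a long period around birth and then build an outer segment, a modified cilium filled with membrane discs that carry the visual pigment. The homeodomain factor CRX, with the factors NRL and NR2E3, turns on the rod genes in the postnatal retina, and Cd73 is a surface enzyme of rod precursors and rods. In bulk samples, fewer cells of a type and less RNA per cell cannot be told apart.

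The fractions matched their labels by rod genes at P2, P5, and P8, and by Müller glia and bipolar cell genes at P8. Of 28 rod genes, 27 were over 1.5-fold higher in Cd73PC than in Cd73NC at P8, 27 at P5, and 26 at P2. All 9 genes of a Müller glia list were lower in Cd73PC at P8, and so were 11 of 12 bipolar cell genes. At P2, 4 of the 12 bipolar cell genes were higher in Cd73PC and 3 were lower. Lower at P8 were also 4 of 8 measured amacrine, 2 of 8 ganglion, and 1 of 4 horizontal cell genes. The amacrine gene Slc6a9 was higher in Cd73PC at P8, with a ratio of 4.53. The cone list was mixed, with 5 of 11 higher and 1 lower at P8. The label "unnamed" held only in part. RefSeq matched 64 of the 65 symbols, and 40 of these now have a proper symbol (37 protein coding genes and 3 lncRNAs), while 24 are still listed as Rik or Gm. By RefSeq, 50 members are protein coding, 12 are long noncoding RNAs (lncRNAs), and 2 are pseudogenes.

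The rule passed 12.4% of the 524 expressed Rik and Gm genes and 9.95% of 7569 expressed genes with a proper name, 753 in number. These 753 named genes serve below as the like-chosen set. Over all genes, 7.54% passed the ratio at P8 and 8.78% the ratio to E18, where all members do by the rule. Just inside the FPKM limit lay 5330413P13Rik (5.56) and 1700007K13Rik (6.59), and just outside lay 4930578N16Rik (4.95) and Gm11992 (4.43). At the P8 ratio, 1200014J11Rik (1.51) and 2310009A05Rik (1.52) lay inside, and Gm7120 (1.49) and Gm6788 (1.48) lay outside. At the ratio to E18, 2310009A05Rik (1.505) and A930015D03Rik (1.507) were inside, and 4930455F23Rik (1.498) and 4930453N24Rik (1.494) were outside.

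Promoter sequence shows how far the members share the DNA words that rod factors read. RefSeq (GRCm38.p6) windows of 250 bases before and 50 after the transcription start were given for 56 members, 65 windows in all. The CRX core TAATCC, read as GGATTA on the other strand, stood in 7 windows (10.8%), against 11.1% of 785 windows of 562 of the named genes, 7.06% of all 32851 promoters, and 47.4% of 19 windows of the rod gene list. The NRL core TGCTGA, read as TCAGCA on the other strand, was in 14 member windows (21.5%), against 15.0% of windows of the named genes, 15.8% of the rod list, 14.2% of genes with an FPKM of at least 5 in P8 Cd73PC, and 19.5% of all promoters. Both strands were searched, and the 2 words do not overlap in letters. Both words stood together in none of the 65 member windows, in 2.17% of windows of the named genes, and in 1.36% of all promoters. The 7 members with the CRX core are shown here in the sense of the gene, with the core in capitals and up to 10 bases on each side, at positions found by exact match in the build of the tables, NCBIM37 (mm9).
Gm11744 (Prcd), chr11:116518412-116518437, plus strand: ttgaacgtccTAATCCcttcccagga
3632451O06Rik (Armh4), chr14:50403196-50403221, minus strand: tgtcctactcTAATCCagccctgtgc
2310045N01Rik (Borcs8), chr8:72664036-72664061, plus strand: cgcaatactcTAATCCtctcttctca
A430035B10Rik, chr6:8459387-8459411, minus strand: aatggcaacTAATCCtgtgtcggcg
1110038D17Rik (Gucd1), chr10:74980111-74980136, minus strand: gacctggaagGGATTAggcgtggctt
1110028C15Rik (Kansl1l), chr1:66855319-66855342, minus strand: acacacctccTAATCCttcccaaa
1110034G24Rik (Shld1), chr2:132515922-132515942, plus strand: tgtaatgataGGATTAtctgc

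In Gm11744, now Prcd, the core began at the start site itself, in 3632451O06Rik at -153, and in A430035B10Rik at -241. In 1110038D17Rik it began at a RefSeq start, but before the deposited gene span, which on the minus strand begins at 74980067. In 2310045N01Rik it lay at -130 of an alternative start, inside the gene span of the tables. In 1110028C15Rik it lay inside the gene span, at +37 of an alternative start. In 1110034G24Rik it lay at +40 of a RefSeq start, but before the deposited gene span, which begins at 132516019. The median P5 ratio of the 7 members with the core was 2.36, and it was 2.13 in the 49 without it. For the 12 members with the NRL core the median was 2.08, against 2.22 in the 44 without. A match is a run of letters and was not shown to be bound.

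The 250 bases before the start are printed for 3 members: Prcd, the member with the largest ratio at P8, 3632451O06Rik, the member with the lowest P8 to P2 ratio in Cd73PC (CRX core in capitals), and 6430571L13Rik, a gene given as a marker of the group (NRL core in capitals).
Gm11744 (Prcd), chr11:116518172-116518421, plus strand: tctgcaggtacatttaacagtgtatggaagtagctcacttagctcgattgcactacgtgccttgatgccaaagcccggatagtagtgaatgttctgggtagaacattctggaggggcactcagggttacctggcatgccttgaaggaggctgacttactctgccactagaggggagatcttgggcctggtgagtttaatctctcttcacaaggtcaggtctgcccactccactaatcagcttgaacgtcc
3632451O06Rik (Armh4), chr14:50403059-50403308, minus strand: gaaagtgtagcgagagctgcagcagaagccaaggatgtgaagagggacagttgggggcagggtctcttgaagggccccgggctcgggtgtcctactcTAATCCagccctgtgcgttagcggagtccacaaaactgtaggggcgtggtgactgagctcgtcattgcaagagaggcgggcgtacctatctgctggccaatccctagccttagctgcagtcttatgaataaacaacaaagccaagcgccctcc
6430571L13Rik, chr9:107242721-107242970, plus strand: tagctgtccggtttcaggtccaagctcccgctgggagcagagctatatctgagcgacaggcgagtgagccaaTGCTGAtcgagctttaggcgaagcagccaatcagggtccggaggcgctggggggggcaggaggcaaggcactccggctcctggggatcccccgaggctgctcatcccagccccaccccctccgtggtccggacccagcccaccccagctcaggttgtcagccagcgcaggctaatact

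Across the 65 members, FPKM was higher in Cd73PC than in the other libraries, as the rule had fixed for some of them, and 44 members already had an FPKM of at least 5 at E15. The median was 7.57 at E15, 9.57 at E18, 10.2, 14.6, and 11.8 in Cd73NC at P2, P5, and P8, and 23.9, 33.6, and 31.0 in Cd73PC at the same ages. Summed, they made up 0.194% of all FPKM at E15, 0.298% in P8 Cd73NC, and 0.988% in P8 Cd73PC, or 0.804% there without the most abundant member. The highest library was P8 Cd73PC for 28 members, P5 Cd73PC for 22, and P2 Cd73PC for 15, and none was highest outside Cd73PC. The lowest library was E15 for 42, P8 Cd73NC for 11, P2 Cd73NC for 8, and E18 for 4.

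**Figure D1:**
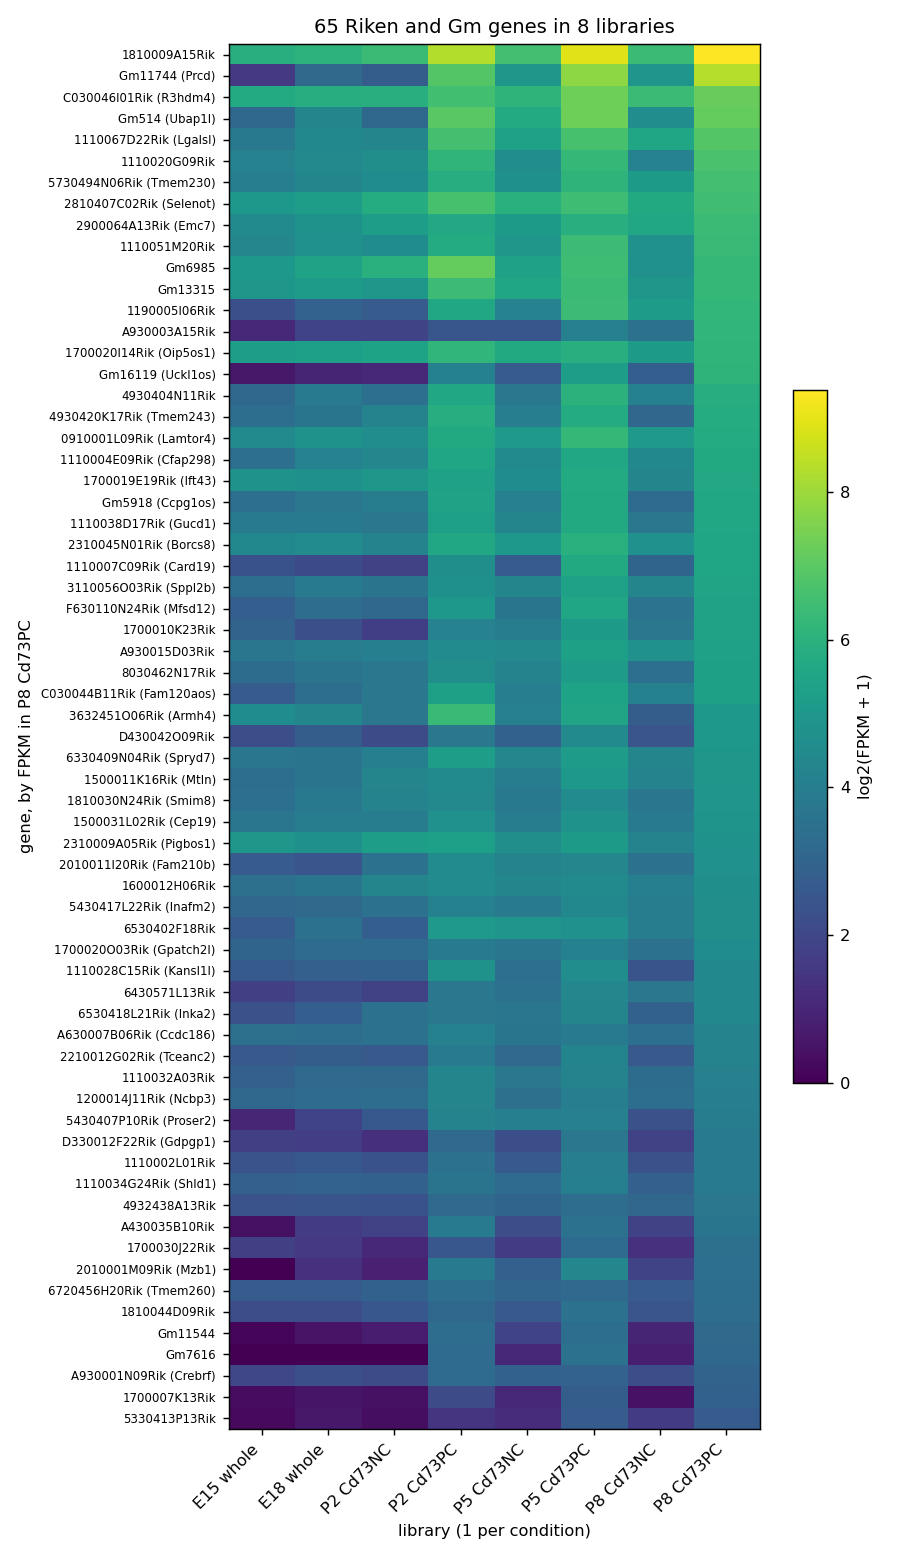
Heat map of log2(FPKM + 1) for the 65 Rik and Gm genes (rows, ordered by FPKM in P8 Cd73PC, newer symbol in brackets) in the 8 libraries (columns). The Cd73PC columns are brighter than the Cd73NC columns of the same age for nearly all rows, and Gm11544, Gm7616, 1700007K13Rik, and 5330413P13Rik near the bottom are close to 0 in whole retina.

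Both P5 libraries were outside the rule, so P5 gave the comparison between fractions least tied to the choice of members. At P5, 49 of 65 members (75.4%) were over 1.5-fold higher in Cd73PC than in Cd73NC, where 7.03% of all genes, 15.3% of genes with an FPKM of at least 5 in P5 Cd73PC, and 79.3% of the 753 named genes were. The median ratio was 2.22 (log2 1.15) and was 2.06 (log2 1.04) in the named genes. By another call, the lower Cufflinks bound in Cd73PC above the upper bound in Cd73NC, 55 members (84.6%) were higher in Cd73PC, against 12.2% of all genes and 92.7% of the named genes. The bounds describe the estimate within a library and not the spread between animals, and 133 member values lay outside their own bounds. The share of members was lower than that of the named genes by either call, while their median ratio was higher. Neither difference was tested.

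**Figure D2:**
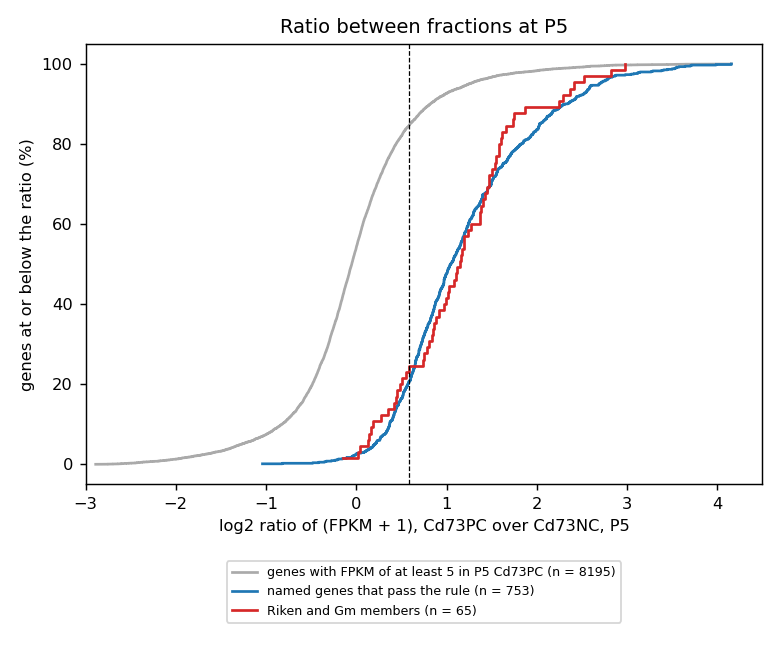
Cumulative share of genes (vertical axis, percent) by the log2 ratio of (FPKM + 1) in P5 Cd73PC over P5 Cd73NC (horizontal axis), for the 65 members, the 753 named genes that pass the same rule, and 8195 genes with an FPKM of at least 5 in P5 Cd73PC. The member and named curves run together, to the right of the curve of expressed genes, and the dashed line marks 1.5-fold.

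At P2, 54 of 65 members (83.1%) were over 1.5-fold higher in Cd73PC, against 8.57% of all genes and 87.3% of the named genes, although P2 Cd73PC was also a library of the rule. By the Cufflinks bounds 60 members (92.3%) were higher, against 16.1% of all genes and 95.5% of the named genes. Of the 65, 43 were past 1.5-fold at both P2 and P5, and 5 were past it at neither. The ratio at P5 was the lowest of the 3 ages in 33 members (50.8%), against 59.1% of the named genes and 30.1% of genes with an FPKM of at least 5 in P8 Cd73PC. In Cd73NC, 56 members (86.2%) were higher at P5 than at P2, where 87.0% of the named and 49.2% of those expressed genes were. Higher at P5 than at P8 in Cd73NC were 49 members (75.4%), 65.9% of the named genes, and 53.0% of the expressed genes. The 28 rod genes summed to 482, 2645, and 2304 FPKM in Cd73NC at P2, P5, and P8. In Cd73PC their sums were 8864, 18102, and 28071. How far the member values in Cd73NC follow those of the rod genes was not tested. Markers of other cells differed between the fractions as well. Of 6 pigment epithelium genes, 5 were higher in P2 Cd73PC, with a summed FPKM of 76.8 against 1.88 in P2 Cd73NC, and Rpe65 was 0 in both. At P8, 4 of the 6 were higher in Cd73PC. Over the 8 libraries the summed level of that list ran from 1.88 to 120. All 6 microglia genes were higher in P2 Cd73PC (summed FPKM 41.5 against 7.29) and none was at P5 or P8. Erythroid genes summed to 7007 in P8 Cd73NC and 2764 in P8 Cd73PC, with 4 of 5 lower in Cd73PC. Their part in the results was not tested.

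The group is led by a small gene on chromosome 19. 1810009A15Rik (chr19:8963393-8965230 in mm9, RefSeq protein coding) had an FPKM of 57.7 at E15 and 65.1 at E18, of 82.9, 95.4, and 83.5 in Cd73NC, and of 311, 495, and 664 in Cd73PC at P2, P5, and P8. It was flat in Cd73NC and higher at each later age in Cd73PC, and the ratios at the 3 ages were 3.71, 5.15, and 7.87. Its neighbour Ints5, a subunit of the Integrator complex that starts 2247 bases beyond its end on the same strand, had 19.4 FPKM in P5 Cd73PC and 19.9 in P5 Cd73NC. A nearer gene, 5730408K05Rik, 133 bases away, was low and had ratios of 1.24, 1.68, and 2.84 at the 3 ages. Over the 8 libraries, the named genes whose log2(FPKM + 1) ran closest to it were Ccdc65, Mtfr1, and Nme5 (Pearson r of 0.995, 0.994, and 0.994, among 10140 named genes). The libraries share age and fraction, so these values describe a likeness of course only.

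Photoreceptor discs were represented by Gm11744 (chr11:116518422-116529703), now Prcd, a small membrane protein of discs whose loss causes progressive rod-cone degeneration. Its FPKM was 1.95 at E15 and 8.41 at E18, then 5.76, 30.4, and 29.5 in Cd73NC, and 116, 221, and 319 in Cd73PC at P2, P5, and P8. Every Cd73PC value was above every other value, and the ratios of 17.3 at P2 and 10.5 at P8 were the largest of the 65. At P5 the ratio was 7.05, second to 1110007C09Rik. The named genes with the closest course were Rp1, a microtubule protein of the outer segment, Tulp1, a photoreceptor transport protein, and BC027072 (r of 0.998, 0.997, and 0.996). Cygb, a globin gene that starts 2795 bases away in the other direction, went the other way at P8, at 10.9 in Cd73PC and 30.5 in Cd73NC. On its other side, 1810032O08Rik had ratios of 1.65 at P5 and 1.60 at P8.

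Gm514, now Ubap1l, a relative of an ESCRT subunit, came next to the 3 most abundant members. It had 7.91 and 18.7 FPKM before birth, 8.00, 51.6, and 22.9 in Cd73NC, and 125, 156, and 142 in Cd73PC at P2, P5, and P8. Its level in Cd73PC was thus near its final value at P2, and its ratio was 14.0 at P2, only 2.99 at P5, and then 6.00. The third most abundant gene, C030046I01Rik (R3hdm4), was broad, with 51.8 at E15, 82.8 in P8 Cd73NC, and 147 in P8 Cd73PC, and a ratio of 2.29 at P5. The named genes closest to it in course were Ap2m1, a subunit of the clathrin adaptor, Rmnd5b, and Fbxo6 (r of 0.993, 0.991, and 0.990).

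Of the other abundant members, 1110067D22Rik (Lgalsl, a galectin-related gene) had 98.7 FPKM in P5 Cd73PC and 40.3 in P5 Cd73NC, and 1110020G09Rik had 74.7 and 23.0. For 1110051M20Rik the values were 84.3 and 30.2. These 3 had ratios of 2.41, 3.15, and 2.74 at P5, so each was past 1.5-fold in the libraries not used to choose it. The 1110007C09Rik gene (Card19) had the largest P5 ratio, 7.88, with 4.10 FPKM at E15 and 3.30 at E18, 2.61, 5.55, and 7.15 in Cd73NC, and 24.4, 50.7, and 44.4 in Cd73PC at P2, P5, and P8. Its level in Cd73PC was highest at P5, and every Cd73PC value was above every other. Further large P8 ratios belonged to 4930420K17Rik (Tmem243), at 6.53, and D430042O09Rik, at 5.76. At P5 their FPKM was 53.4 in Cd73PC and 15.1 in Cd73NC for the first, and 21.2 and 6.61 for the second.

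**Figure D3:**
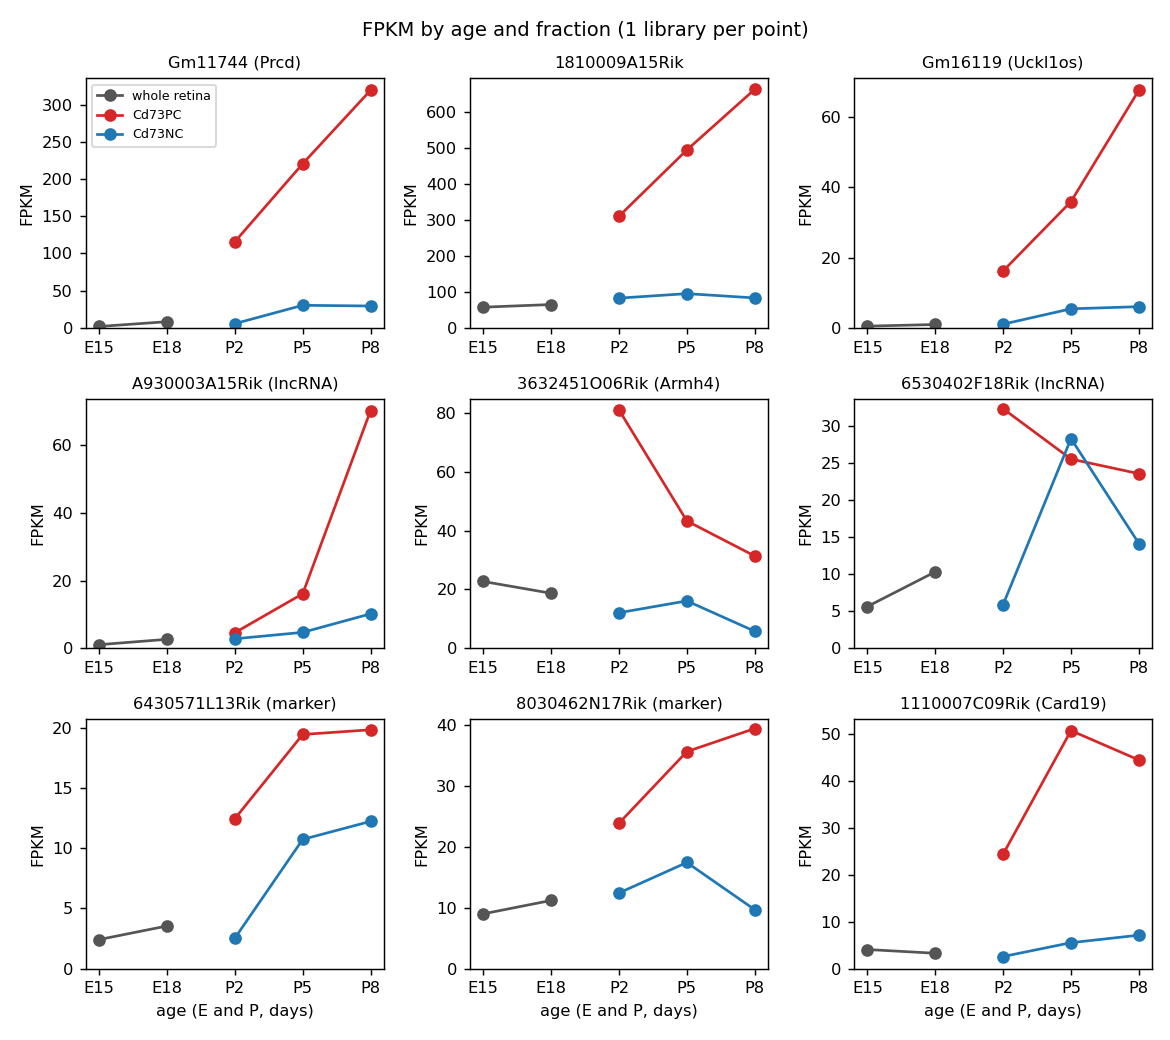
FPKM (vertical axis, each panel with its own scale from 0) by age for 9 members in whole retina (grey), Cd73NC (blue), and Cd73PC (red), with 1 library per point. Gm11744, 1810009A15Rik, Gm16119, and A930003A15Rik are higher at each later age in Cd73PC, 3632451O06Rik is lower at each, and the fractions cross at P5 in 6530402F18Rik.

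The 2 genes given as markers behaved unlike each other. 6430571L13Rik (chr9:107242971-107252014) had 2.42 and 3.55 FPKM at E15 and E18, 2.54, 10.7, and 12.2 in Cd73NC, and 12.4, 19.4, and 19.8 in Cd73PC. Its level in Cd73NC was several-fold higher at P5 and P8 than at P2, and the ratio between fractions, 3.80 at P2, was 1.74 and then 1.57. Among the named genes with a close course were Mmd2 and Mef2d, a transcription factor of photoreceptors and other neurons (r of 0.998 and 0.997). The 8030462N17Rik gene had 9.02 and 11.2 FPKM at E15 and E18, 12.4, 17.5, and 9.70 in Cd73NC, and 23.9, 35.7, and 39.4 in Cd73PC. Its ratio went the opposite way, with 1.85 and 1.99 at the earlier ages and 3.78 at P8. The nearest named genes were Smpd2, Pwwp2b, and Wdr31 (r of 0.996, 0.992, and 0.988).

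Members with a known role were grouped by it after their values had been seen, and each count below stands beside 75.4% of all members and 7.03% of all genes. All 3 cilium genes were past 1.5-fold at P5: 1700019E19Rik (Ift43, of intraflagellar transport complex A) at 52.1 FPKM in Cd73PC and 22.9 in Cd73NC, 1110004E09Rik (Cfap298, for motile cilia) at 46.9 and 21.1, and 1500031L02Rik (Cep19, of the ciliary base) at 26.9 and 14.4. Each was also present before birth, at 26.9, 9.78, and 11.9 FPKM at E15. Secretory and endolysosomal genes were the largest group, with 6 of 8 past 1.5-fold at P5. Among them, 5730494N06Rik (Tmem230, of secretory and synaptic vesicles) had 66.9 FPKM in P5 Cd73PC and 25.2 in P5 Cd73NC, F630110N24Rik (Mfsd12, a lysosomal cysteine transporter) had 44.6 and 11.5, and 0910001L09Rik (Lamtor4, of the Ragulator complex) had 74.2 and 32.8. The endoplasmic reticulum membrane complex subunit 2900064A13Rik (Emc7) had 57.9 and 33.9. The 2 not past 1.5-fold were the selenoprotein 2810407C02Rik (Selenot), with a ratio of 1.42, and A630007B06Rik (Ccdc186), with 1.21. Of 3 mitochondrial genes, 1 was past it, 1500011K16Rik (Mtln, a micropeptide of the inner membrane), at 30.8 FPKM in P5 Cd73PC and 14.6 in P5 Cd73NC. Of 4 nuclear genes, 2 were, 1110028C15Rik (Kansl1l, ratio 2.28) and 1110034G24Rik (Shld1, ratio 1.72).

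The 12 lncRNAs had a median P5 ratio of 2.48, and the 50 protein coding members of 2.15. Past 1.5-fold at P5 were 10 of the 12 and 36 of the 50. At E15, 4 of the 12 lncRNAs and 3 of the 50 coding members were below an FPKM of 1, and the difference was not tested. Over all members, 7 of 65 (10.8%) were below 1 at E15, against 44.1% of all genes, 15.1% of the named genes, and 2.24% of all genes with an FPKM of at least 5 in P8 Cd73PC. These 7 were Gm16119, A430035B10Rik, Gm7616, and 5330413P13Rik among the lncRNAs and 2010001M09Rik (Mzb1), Gm11544, and 1700007K13Rik among the coding genes.

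Gm16119 (chr2:181313185-181319820, now Uckl1os) was the lncRNA with the largest ratio. It had 0.512 and 0.978 FPKM at E15 and E18, 1.07, 5.44, and 6.05 in Cd73NC, and 16.2, 35.9, and 67.6 in Cd73PC, with ratios of 8.30, 5.74, and 9.73 at P2, P5, and P8. Its span overlaps by 3494 bases that of Uckl1, a uridine kinase-like gene on the other strand, which was itself higher in Cd73PC, at 46.1 and 14.7 FPKM at P5. The library protocol describes no step that marks strand, so reads from the overlap cannot be assigned to a strand. Znf512b, on the other strand with 3013 shared bases, had 16.5 and 13.1 FPKM at P5.

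A930003A15Rik (chr16:19876661-19884367) had the steepest course. Its FPKM was 1.09 and 2.67 at E15 and E18, 2.83, 4.73, and 10.2 in Cd73NC, and 4.63, 16.1, and 70.3 in Cd73PC at P2, P5, and P8. From P2 to P8 this was a 12.7-fold higher (FPKM + 1) in Cd73PC, and most of it lay between P5 and P8 (4.16-fold). Only this lncRNA among the 65 exceeded 4-fold from P2 to P8 in Cd73PC, with Gm16119 next at 3.99-fold. Then came Gm11744 at 2.74-fold, 5330413P13Rik at 2.49-fold, and D430042O09Rik at 2.40-fold.

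Gm7616 (chr9:59799101-59806851), a lncRNA, was listed at 0 in P2 Cd73NC and at E18, and at 0.0233 at E15. It then had 1.12 and 0.745 FPKM in Cd73NC at P5 and P8, and 8.61, 10.2, and 7.73 in Cd73PC at P2, P5, and P8. The gene starts 1215 bases from Nr2e3, which runs the other way and encodes a nuclear receptor that keeps cone genes off in rods. Nr2e3 had 7.63, 200, and 89.8 FPKM in Cd73NC and 950, 1433, and 1140 in Cd73PC at these ages. Both were highest in P5 Cd73PC, and in both the fractions were farthest apart at P2.

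The remaining lncRNAs were closer between fractions or spread over both. At P5, 1700010K23Rik had 33.8 FPKM in Cd73PC and 14.5 in Cd73NC, A930015D03Rik 38.9 and 20.2, and C030044B11Rik (Fam120aos) 42.5 and 15.2. Values were lower for 1110002L01Rik, at 15.0 and 5.16, A430035B10Rik, at 10.3 and 3.79, 1810044D09Rik, at 10.2 and 5.08, and 5330413P13Rik, at 5.57 and 1.26. All 7 were past 1.5-fold at P5. The lncRNA 1700020I14Rik (Oip5os1) was broad, with 37.3 FPKM at E15, among the 3 highest members at that age with 1810009A15Rik and C030046I01Rik, and 57.4 in P5 Cd73PC against 51.2 in P5 Cd73NC.

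The 12th lncRNA, 6530402F18Rik (chr2:29100636-29108513), was the member for which the fractions met at P5. It had 5.66 and 10.3 FPKM at E15 and E18, 5.92, 28.4, and 14.2 in Cd73NC, and 32.4, 25.6, and 23.6 in Cd73PC, with ratios of 4.82, 0.906, and 1.62 at the 3 ages. It was the only member lower in Cd73PC than in Cd73NC at P5 (log2 -0.14), and with upper-quartile scaling the log2 ratio was 0.0085. Ntng2, a netrin G gene annotated on the same strand with 2925 shared bases, had 14.8 and 77.8 FPKM in Cd73NC at P2 and P5 and 88.8 and 67.7 in Cd73PC, with a ratio of 5.68 at P2 and 0.872 at P5. Reads in the shared bases cannot be assigned to either gene from these tables.

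The next smallest P5 ratios belonged to A930001N09Rik (Crebrf, 1.01), 5430407P10Rik (Proser2, 1.03), 2010011I20Rik (Fam210b, 1.10), and 6720456H20Rik (Tmem260, 1.10). Proser2 had 1.03 and 2.71 FPKM before birth, 4.97, 15.4, and 4.01 in Cd73NC, and 17.2, 15.8, and 14.5 in Cd73PC, so that its Cd73NC value at P5 stood apart from those at P2 and P8 while Cd73PC varied little. Of the 16 members not past 1.5-fold at P5, 11 had a P8 ratio between 1.5 and 2.

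**Figure D4:**
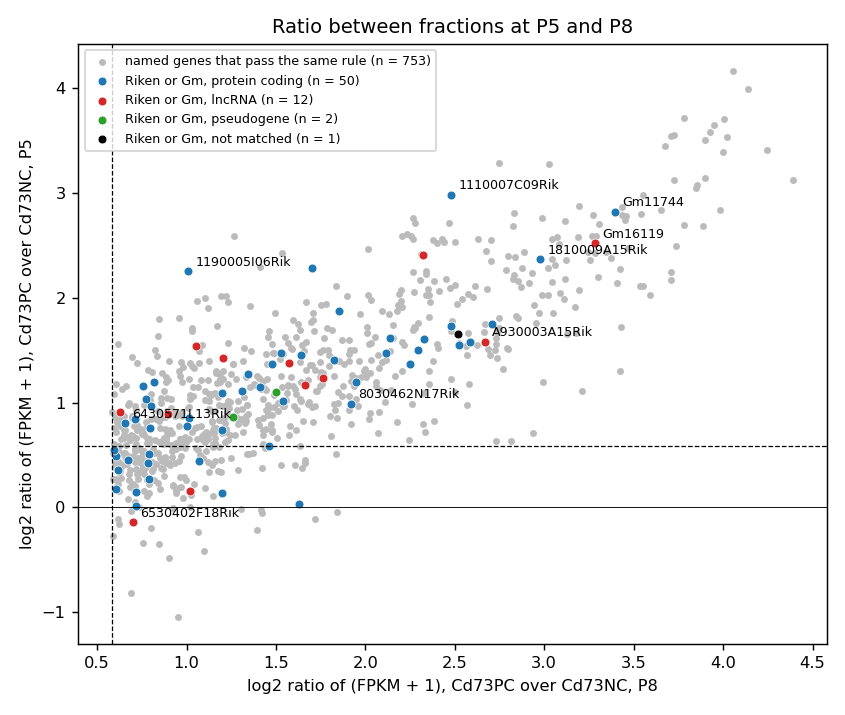
Log2 ratio of (FPKM + 1) in Cd73PC over Cd73NC at P5 (vertical axis) against P8 (horizontal axis), for the 65 members by RefSeq class and the 753 named genes that pass the same rule (grey). Dashed lines mark 1.5-fold, 49 members lie above the horizontal one, and 6530402F18Rik lies below 0.

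Within Cd73PC, 21 of 65 members (32.3%) were over 1.5-fold higher at P8 than at P2, against 6.41% of all genes and 41.8% of the named genes. In 24 members the level was higher at each later age. No share over all genes or the named genes was taken for this order, so the count is a description only. At P8, 2 members (3.08%) were over 1.5-fold lower than at P2, against 14.7% of all genes and 6.37% of the named genes. Both libraries had served the rule. One of the 2, 3632451O06Rik (chr14:50301694-50403042, Armh4), had 22.7 and 18.7 FPKM at E15 and E18, 12.1, 16.1, and 5.81 in Cd73NC, and 80.9, 43.2, and 31.3 in Cd73PC at P2, P5, and P8. It was lower at each later age in Cd73PC and yet stayed above Cd73NC, with a ratio of 2.59 at P5. Between E15 and E18, before the sorted ages, 11 members (16.9%) were over 1.5-fold higher at E18, against 4.61% of all genes and 22.7% of the named genes, and E18 was a library of the rule.

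The other member lower at P8 was a pseudogene. Gm6985 (chrX:90883954-90884223) had 31.1 and 41.5 FPKM at E15 and E18, 60.4, 40.5, and 25.7 in Cd73NC, and 141, 88.0, and 74.3 in Cd73PC. Its alignment to Hmgn2, a nucleosome binding protein, was 279 positions long, gaps included, with 90.3% identity. Gm6724 and Gm10282 aligned to it with 92.3% identity over 273 positions, and no values are listed under these symbols. Hmgn2 had 876, 756, and 563 FPKM in Cd73PC and ratios of 2.12, 2.37, and 2.995 at P2, P5, and P8. The ratios of Gm6985 were 2.31, 2.15, and 2.82. The other pseudogene, Gm13315 (chr2:14642269-14644249), aligned over 1519 bases with 90.8% identity to Ldha, the lactate dehydrogenase A gene. Gm13315 had 30.0 and 35.4 FPKM at E15 and E18, 30.4, 45.3, and 30.4 in Cd73NC, and 84.7, 83.5, and 74.1 in Cd73PC. Its ratios of 2.74, 1.82, and 2.39 lay beside 2.73, 1.90, and 2.43 for Ldha, whose own level was 1643 FPKM in P8 Cd73PC. Gm11544 aligned with 95.7% identity over 492 bases to Tmem92-ps, and their P5 ratios were 2.83 and 2.90. With reads of 36 bases, the values of Gm6985, Gm13315, and Gm11544 are uncertain, since reads may be shared with like copies.

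Chromosome 2 held 14 of the 65 members (21.5%), against 9.54% of the expressed Rik and Gm genes and 8.10% of the 753 named genes. On that chromosome, the spans of 5330413P13Rik, 5730494N06Rik, and 1110034G24Rik have their lower coordinates at 131645742, 132065228, and 132516019. Only 1 pair of members in the genome lay within 5 kb of each other, 4930404N11Rik and F630110N24Rik on chromosome 10. That pair runs toward each other with an overlap of 12 bases. At P5 the first had 64.9 FPKM in Cd73PC and 12.5 in Cd73NC, a ratio of 4.88, and the second had a ratio of 3.65.

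Neighbouring genes showed how far the enrichment extended to the locus. Of the 65 members, 42 had another gene within 5 kb or overlapping, and 11 overlapped one. Among 40 neighbour pairs in which the neighbour had an FPKM of at least 5 in P8 Cd73PC, 15 neighbours (37.5%) were themselves over 1.5-fold higher in P8 Cd73PC. That share was 32.3% around the 753 named genes and 16.4% around all genes with an FPKM of at least 5 in P8 Cd73PC. The 15 include the 1 pair of members described above, counted from each side, and 13 of 38 (34.2%) were enriched without it. Among neighbours that do not pass the rule themselves, 5 of 30 (16.7%) were over 1.5-fold higher around members, 11.4% around the named genes, and 7.69% around all genes with an FPKM of at least 5. Beside Nr2e3 and Uckl1, the 15 enriched neighbours included Cacnb2, a calcium channel subunit of the rod synapse, whose span holds Gm13315 (P8 ratio 4.05). Also among the 15 was Cadm2, an adhesion molecule that holds 1700010K23Rik (3.78). Some of the 15, such as Nr2e3, pass the rule themselves. Ccpg1, whose start lies 175 bases from that of Gm5918 (Ccpg1os), had a ratio of 2.29. Synj1, a synaptic phosphatase near 1110004E09Rik, had 2.05, and Rab27a, a vesicle transport GTPase near 2310009A05Rik (Pigbos1), had 2.03. Glcci1 near A430035B10Rik had 1.87, Cib1 near D330012F22Rik (Gdpgp1) 1.69, Med16 near C030046I01Rik 1.66, Asxl2 near 1110002L01Rik 1.65, and Fam120a near C030044B11Rik 1.52.

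The neighbours did not keep the same difference at P5. Cacnb2, at 13.7 FPKM in Cd73PC and 1.67 in Cd73NC, had a ratio of 5.52, Nr2e3 of 7.15, and Cadm2 of 2.31, while Glcci1 had 0.715 and Fam120a 0.939. A430035B10Rik and C030044B11Rik, which lie beside the last pair, had ratios of 2.36 and 2.69. Genes whose starts face away from each other made 19 pairs with members, 14 of them with starts within 1000 bases. In 7 of the 19 the partner had a P8 ratio above 1.5, and 5 of these partners had an FPKM of at least 5 in P8 Cd73PC. No share of such pairs was taken around the named genes or all genes, so these counts are a description only. Kif3c, a kinesin on the other strand with 2612 bases shared with 1110002L01Rik, was lower in Cd73PC, at 10.9 and 18.9 FPKM at P5.

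**Figure D5:**
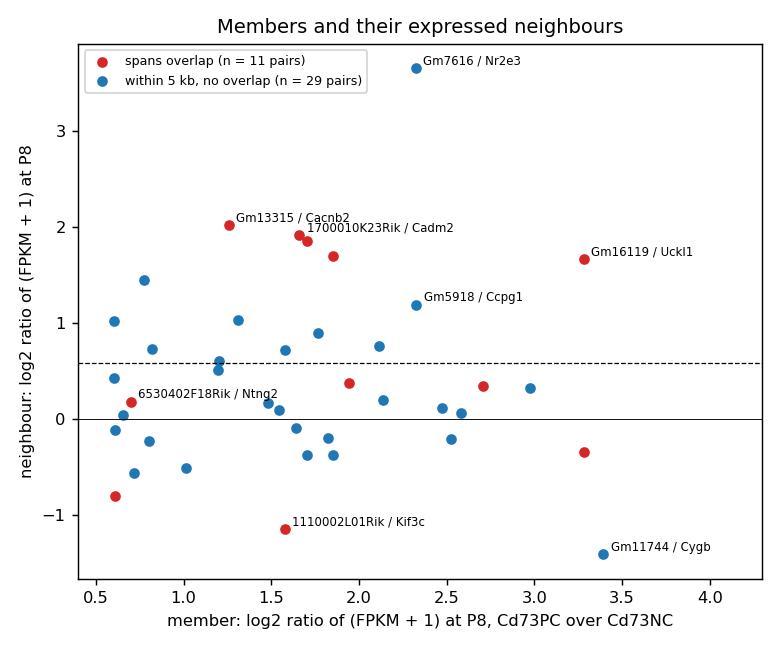
Log2 ratio of (FPKM + 1) in P8 Cd73PC over P8 Cd73NC for 40 pairs of a member (horizontal axis) and a gene within 5 kb or overlapping (vertical axis) with an FPKM of at least 5 in P8 Cd73PC. The dashed line marks 1.5-fold, 15 neighbours lie above it, and Kif3c and Cygb lie below 0.

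The 36 Rik and Gm genes left out for their ratio to E18 were not uniform at P5. Of the 36, 19 were over 1.5-fold higher in P5 Cd73PC than in P5 Cd73NC. That was so for 7.03% of all genes, 15.3% of genes with an FPKM of at least 5 in P5 Cd73PC, and 75.4% of the members. The 36 had already passed the ratio between fractions at P8. The most abundant, 2010107E04Rik, had 496 FPKM in P5 Cd73PC and 210.2 in P5 Cd73NC, and it missed the rule because P2 Cd73PC was 1.47-fold above E18. 1700003M02Rik had 6.97 and 0.495 FPKM at P5 and only 1.90 in P2 Cd73PC.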

How the data were processed

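Gene expression was measured in 8 libraries of poly(A) RNA, 1 per condition. The authors sequenced single reads of 36 bases, aligned them to mm9, and deposited 23021 rows of FPKM per library with lower and upper confidence bounds. The submitters' processing notes name CASAVA 1.8.2, bcl2fastq 1.8.4, TopHat2 2.0.8b, and Cufflinks 2.1.1. Between 4 and 10 rows per library with a failed estimate were taken as missing. Read counts were not used here, and depth relative to E18, read from steps in low values, ran from 0.966 to 1.61. The absolute depth is unknown, so no counting interval is given.

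Rows were summed by gene symbol, and 727 small RNA symbols were left out of backgrounds. Ratios used FPKM + 1, which understates the difference of low genes. Of 21187 genes with 1 row, 21166 were on the same chromosome in the NCBIM37 annotation (GENCODE vM1). File starts count from 0, and 1 was added. Newer symbols and classes came from RefSeq. The members and lists were chosen with earlier results of these data known. Named members were the 2 markers, those highest in P8 Cd73PC or at E15, those at the extremes of the P8 ratio, P5 ratio, and change from P2 to P8 in Cd73PC, noncoding members, those with an enriched neighbour, and those next to a threshold. Some others were named after their values were seen, as were the genes of the role groups. Some items that the rule would name are not reported here. The alternatives were other pseudocounts, scalings, thresholds, FPKM minimums, Cufflinks bounds, unsummed rows, and failed rows as 0. Scripts (Python 3.11.15, numpy 2.4.6, pandas 2.3.3, matplotlib 3.10.9) were tested on simulated data.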

Additional observations from a re-analysis of the deposited data

Results flagged for a closer look

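The lncRNA 6530402F18Rik was higher in Cd73PC than in Cd73NC at P2 and P8 and lower at P5, where the ratio of (FPKM + 1) was 0.906. It drew attention because its difference between fractions changed direction with age. The direction at P5 was not stable, since the log2 ratio was 0.0085 with upper-quartile scaling, and the Cufflinks bounds of the P5 libraries overlapped, at 24.2 to 27.1 in Cd73PC and 26.8 to 30.0 in Cd73NC. The difference between ages was not tested, since each age had 1 library per fraction.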

How the results depend on the processing

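With 1 library per condition, no library could be left out of a group, and no spread between replicates was at hand. No paired analysis was possible because each age had only 1 pair of fractions, taken from the same retinas, and the comparisons were made within an age. A fit over the 3 ages as pairs was not run, since libraries of P2 and P8 had chosen the members. A count or median was taken as moved past a 1.5-fold change. Of 60 values under the alternatives, 47 were not moved, 12 were moved, and 1 changed sign. With a threshold of 2-fold, members numbered 32, of which 28 were past it at P5, 31 at P2, and 4 from P2 to P8 in Cd73PC. Quantile normalization gave 109 members, 89 past 1.5-fold at P5, 88 at P2, and 38 from P2 to P8, with 15 below an FPKM of 1 at E15. Upper-quartile scaling gave 32 members past 1.5-fold from P2 to P8. Members below 1 at E15 numbered 25 with an FPKM minimum of 1 and 2 with a minimum of 10. These settings change which genes are members. On the same 65 genes, 55 were past 1.5-fold at P5 with upper-quartile scaling and 54 with quantile normalization, which moved the median log2 ratio of 8195 expressed genes at P5 from -0.05 to 0.10 and 0.07. The log2 ratio of 6530402F18Rik at P5, looked at again after its value was seen, was -0.14 as deposited and 0.0085 with upper-quartile scaling, and lay between -0.15 and -0.08 under the 3 other settings. All 65 members were also found with other pseudocounts, scalings, and an FPKM minimum of 1.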
